A study of Mus musculus with 24 samples.

Results

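Resident Kupffer cell markers were followed across 20 mouse liver libraries as a panel of 10 genes, namely Clec4f, Vsig4, Timd4, Cd5l, Marco, Adgre1, Csf1r, Cd163, C1qa and C1qb. The members were taken by gene symbol from the 41388 features of the deposited tables, and all 10 were found and were tested. The study asked how loss of lipin 1 in adipocytes, through deletion of Lpin1, affects the liver of male mice on a C57BL/6J background. Adn-Lpin1-/- mice carried homozygous Lpin1-floxed alleles and a Cre transgene driven by the adiponectin promoter, so that the deletion was directed to adipocytes and not to the liver cells measured here. WT mice were littermates that carried the same floxed alleles without Cre. Each genotype was given a low-fat diet (LFD, 10% of kcal from fat) or a high-fat diet (HFD, 60% of kcal from fat) from 8 weeks of age, with 5 single-mouse libraries in each of the 4 groups and 1 further library per group made from a pool of the RNA of its mice. The sample labels give 16 weeks of feeding while the study's methods give 5 weeks for this diet experiment, so the time on diet is uncertain. Food was withheld from all mice for 4 hours before tissue was taken.

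Kupffer cells are the macrophages that live inside the sinusoids of the liver. They are seeded before birth and renew themselves locally, and they clear bacteria, complement-coated particles, aged red cells and modified lipoproteins from portal blood. CLEC4F is a lectin that in mice is largely restricted to Kupffer cells, VSIG4 is a receptor for complement fragments, TIMD4 binds phosphatidylserine on dying cells and marks long-lived resident macrophages, CD5L is a secreted scavenger protein, and MARCO is a scavenger receptor for bacteria. ADGRE1 (F4/80) and CSF1R, the receptor for CSF1 and IL34, are shared by most macrophages, CD163 takes up haemoglobin bound to haptoglobin, and C1QA and C1QB are chains of the complement initiator C1q that macrophages make. Monocytes that enter the liver can gain several of these markers with time, with TIMD4 among the last.

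The single-mouse libraries held 36260187 to 81072794 counts, and the median total was 1.30 times higher in Adn-Lpin1-/- than in WT mice on LFD and 1.09 times higher on HFD. Lpin1 itself in whole liver does not check the adipocyte deletion. Its level ranged from 142 to 673 CPM in WT LFD, 322 to 1195 in Adn-Lpin1-/- LFD, 137 to 556 in WT HFD and 120 to 580 in Adn-Lpin1-/- HFD livers, and its genotype difference was not called on LFD (adjusted p = 0.314) or HFD (adjusted p = 0.734, edgeR). Hepatocyte genes identified the tissue, with Alb at a mean of 63250 to 80050 CPM over the groups. Throughout, levels are CPM, counts as a rate of the library total, with totals adjusted by the trimmed mean of M-values (TMM), means are given ± SD with n = 5 mice, and a gene was called when its edgeR quasi-likelihood p, adjusted by Benjamini-Hochberg over the 13052 genes tested, was at or below 0.05. Nothing in the labels ties mice to litters or processing batches.

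All members were well above the detection limit, from 62 counts for Marco in its lowest liver to 8495 counts for Cd5l in its highest. Levels of different genes are compared only per length, as RPKM, the CPM divided by the exon length in kb. In WT LFD livers C1qa had the highest mean RPKM at 34.9, followed by C1qb at 28.1, Clec4f at 24.9 and Cd5l at 22.97. Vsig4 (7.49 RPKM) and Csf1r (6.21 RPKM) formed a middle pair, and Cd163 (1.97), Marco (1.76), Timd4 (1.499) and Adgre1 (1.39) had the lowest RPKM. In Adn-Lpin1-/- HFD livers the highest and lowest of these were C1qa at 46.9 RPKM and Timd4 at 2.38 RPKM.

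RefSeq start sites on GRCm38.p6 were matched for 7 of the 10 members, and the 250 bases before each start were searched on both strands for 3 six-letter cores bound by factors known from macrophages. The cores were TGCTGA, the core of MAF recognition elements, GAGGAA, the purine-rich core bound by PU.1, and AGGTCA, the core of nuclear receptor elements. TGCTGA was present in 4 of the 7 (Clec4f, Timd4, Cd5l and C1qb) and in 16.08% of all 32851 promoters of this length. GAGGAA was present in 4 (Vsig4, Cd5l, Marco and C1qb) against 23.25% of all promoters, and AGGTCA in 2 (Clec4f and Timd4) against 14.02%. None of these matches overlapped each other in the members, and with 7 promoters the shares are a description only. All 4 genes with TGCTGA were called on HFD below, but so were Vsig4 and Cd163, whose searched promoters lack it. Of the searched members only Marco was not called, and its promoter lacks the core too. These promoters therefore cannot show whether the core marks out called members. The 4 promoters with TGCTGA are shown 5′ to 3′ on the strand of the gene, ending at the base before the start. TGCTGA or its reverse complement TCAGCA is in capitals.
Clec4f, chr6:83656117-83656366, minus strand: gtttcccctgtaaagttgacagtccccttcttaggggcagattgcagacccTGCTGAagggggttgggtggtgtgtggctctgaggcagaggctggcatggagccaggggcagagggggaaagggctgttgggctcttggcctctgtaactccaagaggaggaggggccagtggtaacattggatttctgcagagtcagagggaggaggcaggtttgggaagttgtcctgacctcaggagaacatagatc
Timd4, chr11:46810549-46810798, plus strand: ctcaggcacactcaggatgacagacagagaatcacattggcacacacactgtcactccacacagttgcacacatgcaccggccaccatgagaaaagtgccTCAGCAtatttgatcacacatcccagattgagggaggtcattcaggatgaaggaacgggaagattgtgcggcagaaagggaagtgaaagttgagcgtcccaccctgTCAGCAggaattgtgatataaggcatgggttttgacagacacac
Cd5l, chr3:87357631-87357880, plus strand: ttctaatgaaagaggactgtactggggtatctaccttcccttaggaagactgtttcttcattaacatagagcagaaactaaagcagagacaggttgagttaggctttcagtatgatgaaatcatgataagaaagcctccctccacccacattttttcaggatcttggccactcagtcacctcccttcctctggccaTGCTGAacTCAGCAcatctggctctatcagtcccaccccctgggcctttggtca
C1qb, chr4:136886201-136886450, minus strand: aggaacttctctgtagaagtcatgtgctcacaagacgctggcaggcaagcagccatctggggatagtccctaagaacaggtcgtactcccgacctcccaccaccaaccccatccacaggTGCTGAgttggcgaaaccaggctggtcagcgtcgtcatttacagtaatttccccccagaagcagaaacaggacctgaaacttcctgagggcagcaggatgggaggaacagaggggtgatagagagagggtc
In Cd5l the cores face each other 2 bases apart, starting 54 and 46 bases before the start site. In Timd4 both lie on the opposite strand, starting 150 and 44 bases before it. Clec4f has 1 core starting at 199 bases and C1qb 1 starting at 131 bases before the start. In the annotation used for counting, Clec4f reaches to 83656187. The part of its stretch nearest the RefSeq start therefore lies within the counted gene. No binding was measured in this study, so whether any factor occupies these letters in these livers was not tested.

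On HFD, the Kupffer cell markers were higher in Adn-Lpin1-/- than in WT livers. Of the 10 members, 7 were called and all 7 were higher, namely Clec4f, Vsig4, Timd4, Cd5l, Csf1r, Cd163 and C1qb, where 9.87% of all genes tested were called higher and 18.6% were called in either direction. The median log2 fold change of the 10 was 0.75 against 0.0023 for all genes tested, and the 10 estimates lay between 0.54 for C1qa and 1.04 for Marco. Every mouse of Adn-Lpin1-/- HFD lay above every mouse of WT HFD for 4 of the 10 (Clec4f, Csf1r, Cd163 and C1qb), where 5.78% of all genes separated upward and 11.4% in either direction. These are bulk libraries, so more Kupffer cells and more of these transcripts per cell cannot be told apart. The count of called members rested in part on single mice. Without Adn-Lpin1-/- HFD mouse 2 only Csf1r and Cd163 were called, 2 of 10, when 11.4% of all genes were called, and the median fell to 0.52. The count was 4 without WT HFD mouse 1, 3 or 5 or Adn-Lpin1-/- HFD mouse 1 in turn, and 5 without WT HFD mouse 4. In these 5 fits 14% to 16.2% of all genes were called.

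**Figure D1:**
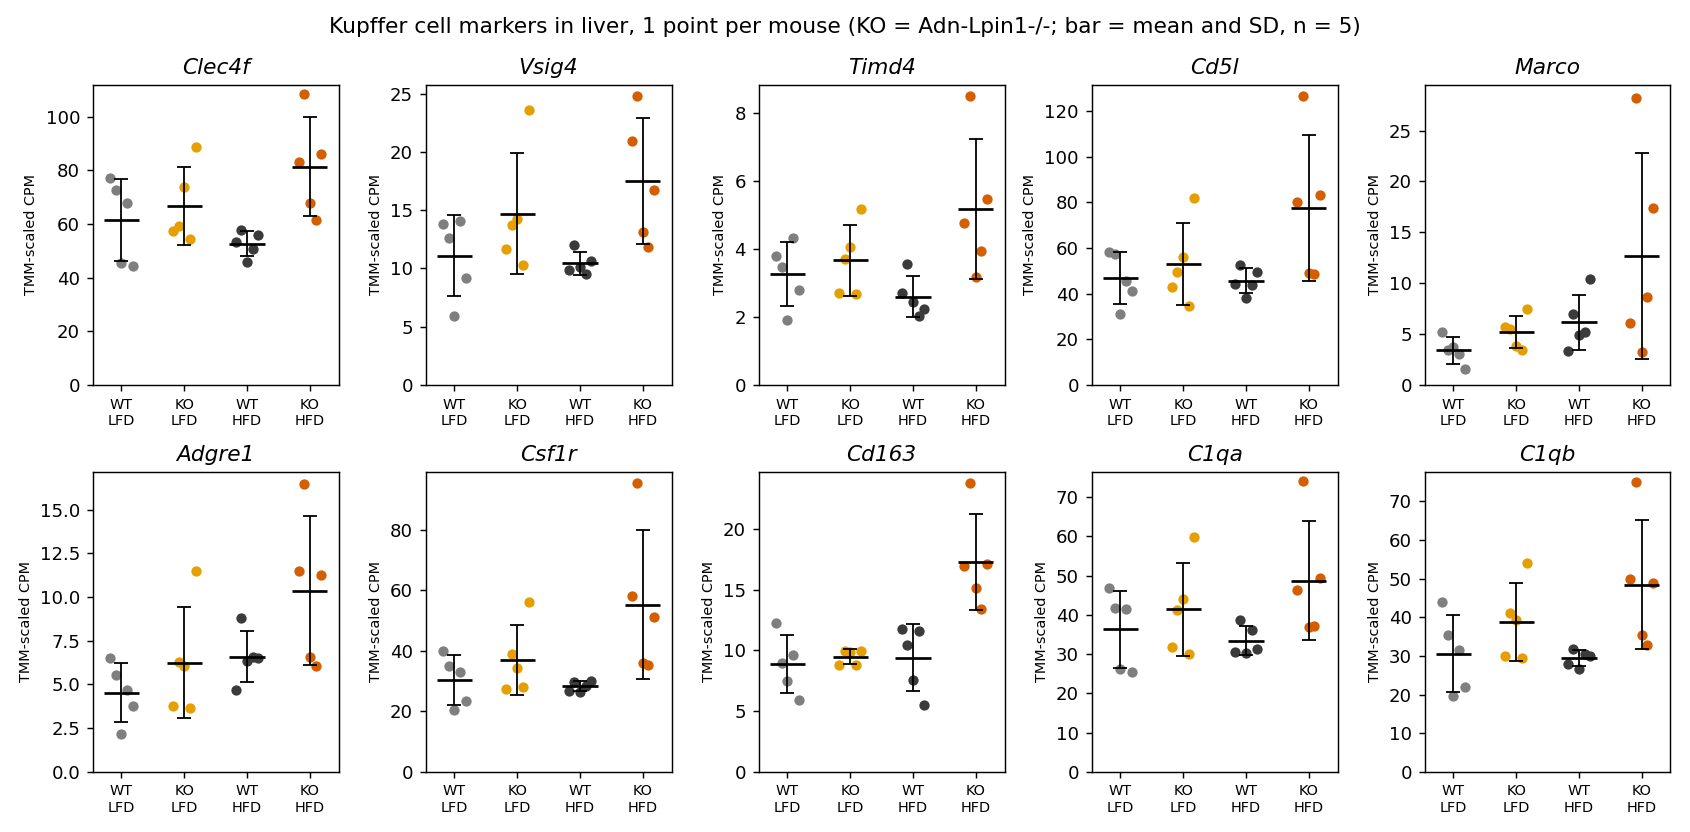
TMM-scaled CPM of each of the 10 markers (linear axes from 0) in the 20 livers, 1 point per mouse, with the group mean as a bar and the SD as an error bar (n = 5). The Adn-Lpin1-/- HFD group (orange-red, right) has the highest mean in all 10 panels, and its highest point in each is mouse 2.

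Among the markers most restricted to Kupffer cells, Clec4f (chromosome 6, 83644542-83656187, GRCm38, minus strand) was at 53.3, 57.9, 45.8, 50.6 and 56.0 CPM in the 5 WT HFD livers. It was at 83.1, 109, 67.9, 61.4 and 85.9 CPM in the 5 Adn-Lpin1-/- HFD livers. The groups did not overlap, although the highest WT liver and the lowest Adn-Lpin1-/- liver were only a few CPM apart, and the difference was 1.55-fold (log2 0.63 ± 0.17 SE, adjusted p = 0.0165, edgeR). The exact two-sided permutation test over the mice gave p = 0.00794, the smallest that 5 against 5 allows and fixed by the lack of overlap. For the members that overlapped on HFD, this permutation test gave p = 0.0159 for Vsig4 and Timd4 and 0.0476 for Cd5l. It gave 0.0317 for C1qa, 0.111 for Adgre1 and 0.254 for Marco. Vsig4 (chromosome X, 96247203-96293438, minus strand), the complement receptor, was at 9.83, 12.0, 10.1, 9.55 and 10.7 CPM in WT HFD livers and at 20.96, 24.8, 13.2, 11.8 and 16.8 CPM in Adn-Lpin1-/- HFD livers. One Adn-Lpin1-/- liver, mouse 4, lay within the WT range, and the difference was 1.68-fold (log2 0.75 ± 0.24, adjusted p = 0.0356, edgeR).

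Timd4 (chromosome 11, 46810800-46844332, plus strand), the phosphatidylserine receptor of long-lived resident cells, was at 2.72, 3.57, 2.46, 2.04 and 2.24 CPM in WT HFD livers. It was at 4.77, 8.50, 3.17, 3.95 and 5.49 CPM in Adn-Lpin1-/- HFD livers. Only Adn-Lpin1-/- mouse 3 fell below the highest WT liver, and the 1.98-fold difference (log2 0.99 ± 0.26, adjusted p = 0.0128, edgeR) was the largest among the called members. Cd5l (chromosome 3, 87357881-87371074, plus strand), the secreted scavenger protein, was at 44.2, 52.5, 38.3, 44.0 and 49.6 CPM in WT HFD livers and at 80.0, 127, 49.1, 48.7 and 83.3 CPM in Adn-Lpin1-/- HFD livers. The Adn-Lpin1-/- livers fell into 3 that were well above every WT liver and 2 (mice 3 and 4) inside the WT range, with a difference of 1.70-fold (log2 0.76 ± 0.25, adjusted p = 0.0364, edgeR).

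Marco (chromosome 1, 120474538-120505024, minus strand), the scavenger receptor for bacteria, had the largest estimate and the widest spread. It was at 3.36, 6.97, 4.95, 5.18 and 10.4 CPM in WT HFD livers and at 6.08, 28.2, 3.24, 8.65 and 17.4 CPM in Adn-Lpin1-/- HFD livers. Mice 2 and 5 of the Adn-Lpin1-/- group lay above the WT range, while its mouse 3 was the lowest of all 10 HFD livers, and the SD in Adn-Lpin1-/- HFD was 79.8% of the mean. The log2 difference of 1.04 ± 0.44 did not pass the test (adjusted p = 0.104, edgeR), and it was 0.52 without Adn-Lpin1-/- HFD mouse 2.

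Of the 2 markers shared by most macrophages, Csf1r (chromosome 18, plus strand), which relays the survival signal of CSF1 and IL34, was at 26.9, 29.7, 26.3, 28.3 and 30.1 CPM in WT HFD livers. It was at 58.1, 95.4, 35.9, 35.4 and 51.2 CPM in Adn-Lpin1-/- HFD livers. WT livers lay within a narrow band, with an SD of 5.97% of the mean, and every Adn-Lpin1-/- liver was above it, a 1.96-fold difference (log2 0.97 ± 0.24, adjusted p = 0.0109, edgeR). Csf1r overlaps the protein-coding gene Hmgxb3 on the opposite strand, and the strand setting of the counting is not given in the sources used here, so reads in the overlap are uncertain. Hmgxb3 had a log2 difference of -0.09 on HFD (adjusted p = 0.588, edgeR). Adgre1 (chromosome 17, 57358686-57483529, plus strand), the F4/80 antigen, was at 4.69, 8.81, 6.33, 6.56 and 6.51 CPM in WT HFD livers and at 11.5, 16.5, 6.55, 6.06 and 11.2 CPM in Adn-Lpin1-/- HFD livers. Mice 1, 2 and 5 of the Adn-Lpin1-/- group were above all WT livers and mice 3 and 4 among them, and the log2 difference of 0.66 ± 0.32 did not pass the test (adjusted p = 0.159, edgeR).

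Cd163 (chromosome 6, 124304651-124330527, plus strand), the haemoglobin-haptoglobin receptor, had the smallest adjusted p of the panel. It was at 11.8, 10.4, 7.59, 11.6 and 5.48 CPM in WT HFD livers and at 16.96, 23.8, 15.1, 13.5 and 17.1 CPM in Adn-Lpin1-/- HFD livers. The groups did not overlap, and the difference was 1.84-fold (log2 0.88 ± 0.20, adjusted p = 0.00530, edgeR). With Csf1r it was one of the members still called without Adn-Lpin1-/- HFD mouse 2.

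C1qb and C1qa, neighbours on chromosome 4 (136880129-136886187 and 136895917-136898803, both on the minus strand), encode chains of the same C1q molecule. C1qb was at 28.01, 31.7, 26.5, 30.6 and 30.1 CPM in WT HFD livers and at 49.98, 74.95, 35.5, 32.9 and 48.9 CPM in Adn-Lpin1-/- HFD livers. These groups did not overlap, with a 1.65-fold difference (log2 0.72 ± 0.22, adjusted p = 0.0299, edgeR). C1qa was at 30.6, 38.8, 30.4, 36.1 and 31.4 CPM in WT HFD livers and at 46.4, 74.0, 36.8, 37.1 and 49.3 CPM in Adn-Lpin1-/- HFD livers. Here mice 3 and 4 of the Adn-Lpin1-/- group fell below the highest WT liver, and the log2 difference of 0.54 ± 0.21 missed the threshold (adjusted p = 0.0747, edgeR). The third chain, C1qc, is not among the 10 markers, and it was called with a log2 difference of 0.74 ± 0.23 (adjusted p = 0.0327, edgeR).

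On LFD, no member was called in Adn-Lpin1-/- against WT livers by edgeR, where 14.4% of all genes tested were called. None had an unadjusted p under 0.05, and the count was also 0 by DESeq2 and by voom with quality weights. All 10 estimates were above 0, as were 51.2% of those of all genes tested. The members varied together among mice, as described below, so their signs are not independent. Their median log2 fold change was 0.24 against 0.0065 for all genes, from 0.10 ± 0.20 for Cd163 to 0.62 ± 0.46 for Marco. For Clec4f, the WT LFD livers were at 77.0, 72.7, 45.4, 67.9 and 44.5 CPM and the Adn-Lpin1-/- LFD livers at 57.2, 59.2, 73.8, 54.4 and 88.7 CPM. The groups interleaved, and the log2 difference of 0.12 had a 95% interval from -0.24 to 0.47. For Timd4, the WT LFD livers were at 3.78, 3.49, 1.91, 4.33 and 2.79 CPM and the Adn-Lpin1-/- LFD livers at 2.71, 3.72, 4.05, 2.67 and 5.18 CPM. These too were interleaved, and the log2 difference of 0.17 had an interval from -0.37 to 0.71. For Cd163, the Adn-Lpin1-/- LFD livers lay close together at 8.81, 9.91, 9.88, 8.81 and 9.95 CPM, inside the WT LFD range of 5.92 to 12.3 CPM. The remaining 7 members likewise overlapped, so the genotypes were apart for 0 of 10 members where 10.1% of all genes did not overlap in either direction. In Adn-Lpin1-/- LFD the highest liver for all 10 members was mouse 5, and without it the estimates of Clec4f and Cd5l turned just below 0 (log2 -0.01 and -0.03) and the median of the 10 was 0.08. The median was 0.13 without WT LFD mouse 3 and 0.15 by voom with quality weights.

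**Figure D2:**
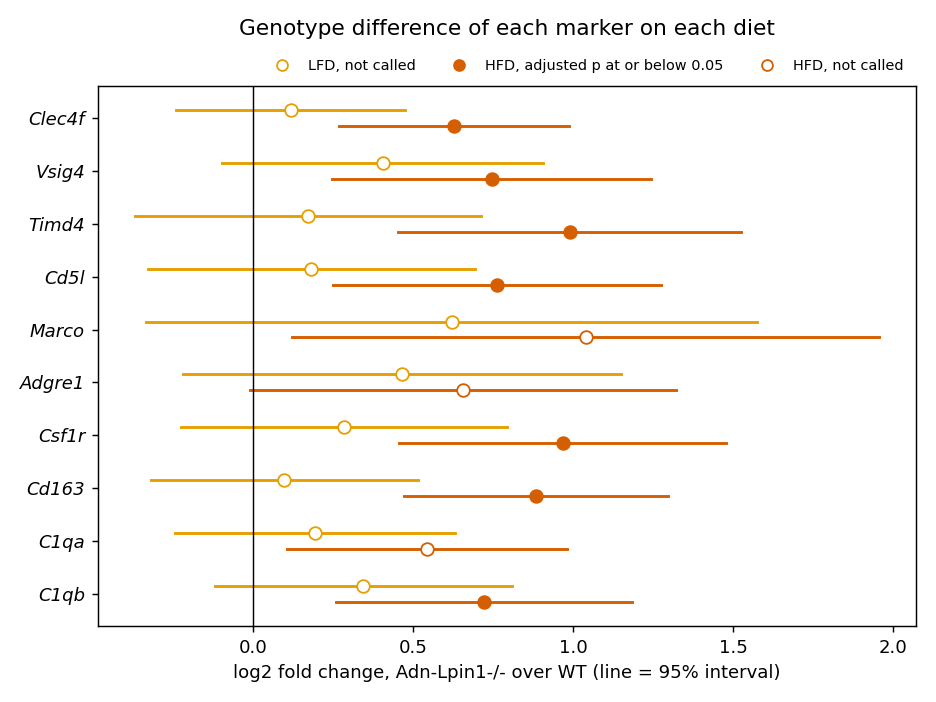
Log2 fold change of Adn-Lpin1-/- over WT for each marker on LFD (yellow) and HFD (orange-red), with lines for the 95% interval from edgeR and filled points for called genes. All 20 points lie to the right of 0, all 10 LFD intervals include 0, and on HFD only the interval of Adgre1 does.

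The diet comparisons within each genotype share their livers with the comparisons above and are given beside them, not as separate support. In WT mice no member was called between HFD and LFD by edgeR, where 1.1% of all genes were called. No member had an unadjusted p under 0.05, and DESeq2 and voom also called 0. The 10 estimates had a median log2 fold change of -0.07, with 7 below 0 and 3 above, from -0.32 ± 0.26 for Timd4 to 0.87 ± 0.46 for Marco, and the median was 0.04 without WT LFD mouse 1. In Adn-Lpin1-/- mice 1 of 10 members was called, Cd163, where 2.46% of all genes were called and 1.2% were called higher. Cd163 rose from 8.81 to 9.95 CPM on LFD to 13.5 to 23.8 CPM on HFD without overlap, as did 2.02% of all genes upward, a log2 change of 0.87 ± 0.20 (adjusted p = 0.0243, edgeR). It was no longer called when any of Adn-Lpin1-/- LFD mice 1, 2, 3 or 4 or Adn-Lpin1-/- HFD mouse 2 was left out. All 10 estimates were above 0 in Adn-Lpin1-/- mice, as were 52.4% of those of all genes, and the signs of the members are again not independent. Their median was 0.52, and 5 had an unadjusted p under 0.05 by edgeR (Cd5l, Marco, Adgre1, Csf1r and Cd163). The median was 0.27 without Adn-Lpin1-/- HFD mouse 2.

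The order of the group means is a short way to see the panel as a whole. All 10 members had their highest mean in Adn-Lpin1-/- HFD livers. For 7 the lowest mean was in WT HFD livers and for Marco, Adgre1 and Cd163 in WT LFD livers. Of the neighbours in these orders, only the step up to Adn-Lpin1-/- HFD for Cd163 passed a test, and the other neighbouring groups that were compared overlapped. Whether the genotype difference itself depended on diet was tested by the interaction of genotype and diet. It was called for 0 of 10 members and for 0 of 13052 genes by edgeR (background 0%), and DESeq2 called 30 genes of which 0 were members. The unadjusted p was under 0.05 for Clec4f (0.0478), Timd4 (0.0362) and Cd163 (0.0110) by edgeR. All 10 interaction estimates were above 0, as were 51.5% of those of all genes, and the signs of the members are not independent. Their median was 0.47 on the log2 scale, from 0.19 ± 0.46 for Adgre1 to 0.82 ± 0.36 for Timd4. Without Adn-Lpin1-/- HFD mouse 2 the median was 0.26 and the estimates of Marco and Adgre1 were below 0 (-0.10 and -0.04). The calls on HFD and their absence on LFD are therefore not shown to differ.

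The members varied together among mice of the same group. With each gene's log2 CPM centred on its group mean over the 20 mice, the 45 pairs of members had a median Pearson r of 0.87, from 0.266 for Marco with Cd163 to 0.974 for Csf1r with C1qb. Against the mean of the other 9 members, r was 0.978 for C1qb, 0.977 for C1qa, 0.965 for Csf1r and 0.940 for Clec4f, and it was lowest for Marco (0.595) and Cd163 (0.574). For comparison, the median r of all genes tested with the mean of the members was -0.024. These values share libraries and scaling and are a description. In each Adn-Lpin1-/- group the same mouse was highest for all 10 members, while in the WT groups the highest mouse varied between members. Adn-Lpin1-/- HFD mouse 2 was the highest of all 20 livers for all 10 members, and mouse 3 or mouse 5 of WT LFD was the lowest of 20 for 9 of them. The summed CPM of the 10 members differed least among WT HFD mice, from 199 to 252. It was 259 to 581 in Adn-Lpin1-/- HFD, 205 to 398 in Adn-Lpin1-/- LFD and 164 to 308 in WT LFD. This did not hold for every member. For Cd163 the SD was 29.4% of the mean in WT HFD and 6.42% in Adn-Lpin1-/- LFD.

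**Figure D3:**
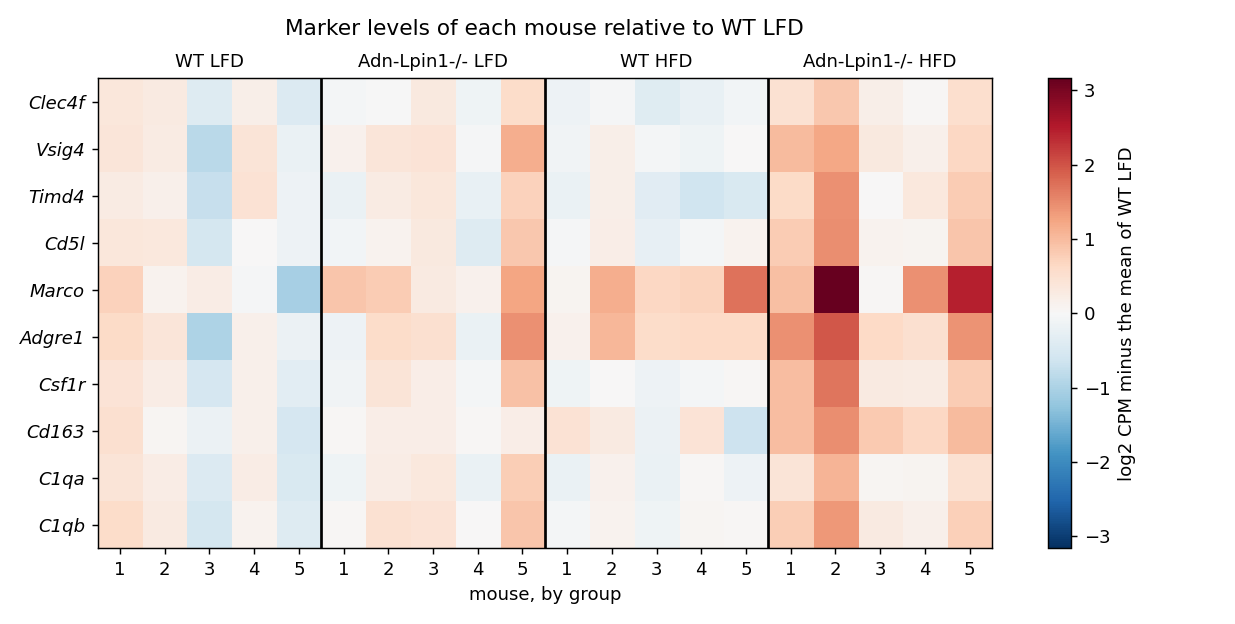
Log2 CPM of each marker (rows) in each of the 20 livers (columns, by group), minus that marker's mean in WT LFD, with red above and blue below it. Columns tend to share one colour across the rows, and Adn-Lpin1-/- HFD mouse 2 is the reddest of its group in all 10 rows.

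The proportions among the markers were compared by dividing each by Clec4f within the same liver. On HFD the log2 ratio to Clec4f differed between the genotypes by 0.33 for Timd4, 0.31 for Cd163, 0.26 for Csf1r and 0.14 for Marco. Without Adn-Lpin1-/- HFD mouse 2 it was -0.13 for Marco and 0.15 for Csf1r, and without WT HFD mouse 5 it was 0.11 for Cd163. For the other 5, namely Vsig4, Cd5l, Adgre1, C1qa and C1qb, it ran from -0.10 for C1qa to 0.09 for Vsig4. The genotypes overlapped for all 9 ratios on both diets, so no ratio separated every mouse by genotype. Overlap in groups of 5 does not show that proportions were equal, and the ratios were not tested. For Timd4 the ratio difference of 0.33 stood against a pooled SD of 0.27 between mice of one group, and for Marco the pooled SD was 0.82. For Csf1r on HFD the pooled SD was 0.21. On LFD the ratio differences to Clec4f ran from 0.0066 for Cd163 to 0.54 for Marco, with pooled SDs of 0.21 and 0.45. For C1qb on LFD the ratio difference was 0.24 against a pooled SD of 0.16.

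Other Kupffer cell genes, which were listed apart from the 10 markers, rose in part on HFD. Of 14 tested, 6 were called and all were higher in Adn-Lpin1-/- livers (Clec1b, C1qc, Cd38, Cdh5, Vcam1 and Cd207), with a median log2 fold change of 0.60. Of the 14 estimates 12 were positive and 2 negative, Slc40a1 (log2 -0.10) and Hpgd (log2 -0.17), neither of them called. Fcna was also not called (log2 0.10). Over all genes tested, 18.6% were called on HFD and 9.87% were called higher. Without Adn-Lpin1-/- HFD mouse 2, 2 of the 14 were called, where 11.4% of all genes were called. Clec1b (CLEC-2), which binds podoplanin, went from 5.403 ± 0.767 to 8.37 ± 1.90 CPM (log2 0.63 ± 0.17 SE, adjusted p = 0.0153, edgeR). Cdh5 and Vcam1 are also made by endothelial cells. Of 17 scavenger and efferocytosis receptors and their ligands, 8 were called on HFD. The 7 that were higher included Stab1, a scavenger receptor shared with sinusoidal endothelium (35 ± 4.46 against 58.9 ± 4.13 CPM, adjusted p = 8.42e-05, edgeR), Fcgr4, Cd68, Fcgr3 and Sirpa. Pros1, which bridges dying cells to receptors of the TAM family and is made mainly by hepatocytes, was lower (log2 -0.29 ± 0.08). Without mouse 2, 4 of the 17 were called. On LFD 2 of 14 and 2 of 17 were called in these lists, among them Stab1 (log2 0.59 ± 0.10), where 14.4% of all genes were called.

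Signals that hold Kupffer cells in their niche and the factors of their identity changed less uniformly. Of 19 tested, 4 were called higher on HFD (Il34, Dll4, Jag1 and Spi1) and 2 lower (Smad4 and Cebpa), with a median of 0.32. Over all genes tested, 18.6% were called on HFD. Without mouse 2, 5 of the 19 were called, 3 higher and 2 lower, where 11.4% of all genes were called. On LFD 1 was called, where 14.4% of all genes were called. Il34, a ligand of CSF1R, went from 2.17 ± 0.350 to 3.24 ± 0.600 CPM (log2 0.57 ± 0.16 SE, adjusted p = 0.0191, edgeR). The Notch ligands Dll4 and Jag1, of which Dll4 is provided by sinusoidal endothelium, had log2 differences of 0.90 ± 0.16 and 0.64 ± 0.15. Spi1, which encodes PU.1, had 0.75 ± 0.25. Cebpa, which is expressed mostly by hepatocytes in liver, was lower on both diets (log2 -0.31 on each). Of the 7 genes of the C1 complex and early classical pathway, C1qc was called higher and Serping1, the C1 inhibitor made by hepatocytes, lower on HFD. On LFD C1ra and C2 were called lower. With 2 of 7 called on each diet, beside the shares of all genes given above, these calls are a description only.

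Other lists of macrophage and leukocyte genes also held genes called higher on HFD. Over all genes tested, 18.6% were called on HFD, 9.87% were called higher on HFD and 14.4% were called on LFD. Without mouse 2, 11.4% of all genes were called on HFD. Of 10 pan-macrophage and pan-leukocyte genes, 9 were called higher on HFD (median log2 0.76) and 0 on LFD by edgeR, where 4 had an unadjusted p under 0.05 and DESeq2 called 2 and voom 0. Among them were Cd68 (8.07 ± 0.939 against 14.3 ± 4.69 CPM) and Lyz2 (18.98 ± 2.37 against 34.2 ± 12.2 CPM), and without mouse 2, 3 of the 10 were called on HFD. Of recruited monocyte genes 6 of 10 were expressed enough to be tested, and 2 were called on HFD (Itgax and Clec12a), or 0 without mouse 2, and 1 on LFD (Cx3cr1, log2 1.43 ± 0.47). The defining monocyte gene Ly6c2 was below the expression limit, at a mean of 0.451 CPM in WT HFD and 0.670 CPM in Adn-Lpin1-/- HFD livers. The summed level of the 10 monocyte genes was 7.79 to 11.9 CPM in WT HFD and 9.80 to 23.7 CPM in Adn-Lpin1-/- HFD livers. Of 10 lipid-associated macrophage genes, 5 were called higher on HFD, including Gpnmb (0.147 ± 0.166 against 1.37 ± 0.936 CPM), Mmp12 (0.271 ± 0.212 against 1.70 ± 1.22 CPM) and Lgals3, and Fabp5 was lower. Without mouse 2, 4 of the 9 then tested were called, all higher. On LFD 2 of the 10 were called, Gpnmb (log2 2.37 ± 0.75) and Cd63 (log2 1.17 ± 0.27), both higher.

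Sinusoidal endothelial genes were called higher for 5 of 10 on HFD and 3 of 10 on LFD (Lyve1, Pecam1 and Flt4 on both), and their summed CPM was 152 to 229 in WT HFD and 238 to 273 in Adn-Lpin1-/- HFD livers. Stellate cell genes were called higher for 5 of 10 on HFD and 6 of 10 on LFD, led by Col1a1 (log2 2.27 and 2.85), and their summed CPM was 159 to 237 in WT HFD and 193 to 478 in Adn-Lpin1-/- HFD livers. These lists thus had calls on LFD, where no Kupffer cell marker was called, but that difference between lists was not tested. Without mouse 2 the HFD calls were 2 of 10 and 1 of 10, where 11.4% of all genes were called. With all mice, 18.6% of all genes were called on HFD and 14.4% on LFD. Hepatocyte genes were lower for 5 of 8 on HFD and 2 of 8 on LFD, with summed CPM of 103400 to 128600 in WT HFD and 84520 to 112500 in Adn-Lpin1-/- HFD livers, and 2 of 8 were called on HFD without mouse 2. Of T and NK cell and of neutrophil genes none of 6 each was expressed enough to be tested, though none was at 0 in all 20 livers, and their summed CPM on HFD stayed between 0.847 and 4.62 in every liver. B cell genes (3 tested), mesothelium genes (4 tested) and peritoneal macrophage genes (5 tested) had 0 calls on HFD by edgeR, with 0, 0 and 2 at an unadjusted p under 0.05 and 0 by DESeq2 and voom. Of 6 adipocyte genes 2 were tested, and their estimates differed in sign. Cfd, which encodes complement factor D, was called higher on both diets and ranged from 3.90 to 184 CPM in Adn-Lpin1-/- HFD livers. Adrb3, a beta-adrenergic receptor of adipocytes, was called lower on LFD (log2 -0.83 ± 0.25) and was not called on HFD (log2 -0.20 ± 0.25). The untested adipocyte genes Adipoq and Plin1 were at or below 0.0518 CPM in each Adn-Lpin1-/- HFD liver. The part of other cell types in the differences of the 10 markers was not tested.

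**Figure D4:**
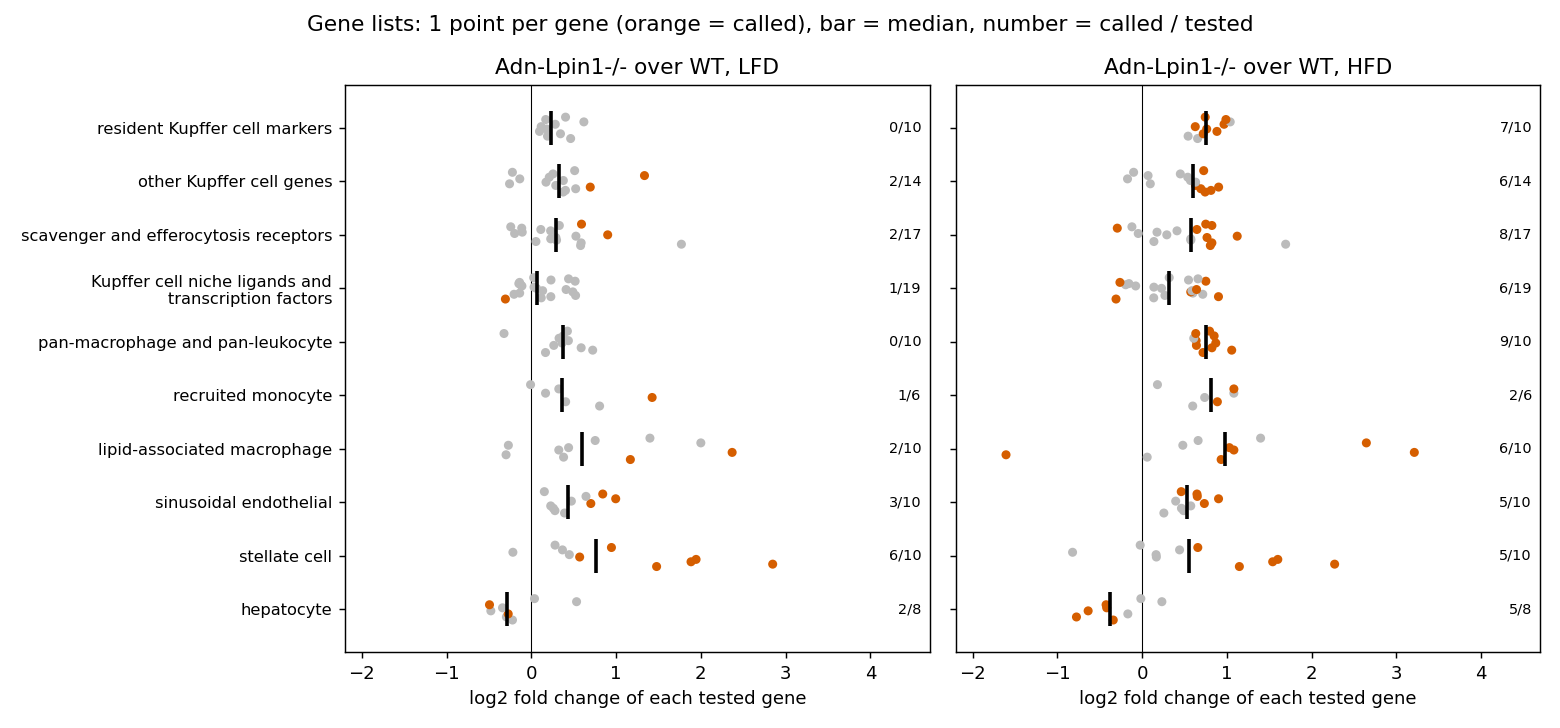
Log2 fold change of Adn-Lpin1-/- over WT of every tested gene in 10 lists on LFD (left) and HFD (right), with called genes in orange, a bar at the list's median and the number called of those tested at the right. The Kupffer cell markers have no called gene on LFD and 7 of 10 on HFD, stellate cell genes have 6 of 10 and 5 of 10, and the hepatocyte median lies below 0 on both diets. Over all genes tested, 14.4% were called on LFD and 18.6% on HFD.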

How the data were processed

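Poly-A-selected liver RNA was sequenced for 20 single mice and 4 pools. Per the submitters' processing notes and the study's methods, the authors aligned reads with STAR 2.5.1a to GRCm38 (Ensembl release 76) and counted reads per gene with featureCounts 1.4.6-p5. The deposited tables give raw counts per gene together with CPM and RPKM columns, and the raw counts were the values tested. Whether strand was used in counting is not given in the sources used here. Symbols were matched by gene identifier to 40254 of 41388 features through GENCODE mouse release M21. The deposited CPM and RPKM columns were not used, and levels were recomputed from the counts.

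The 355 ribosomal RNA genes were removed, which left 13052 genes that passed an expression limit of 1 CPM, exceeded by 4 or more of the 20 single-mouse libraries. Counts were scaled by TMM and fitted over the 4 groups with edgeR 4.0.16 (quasi-likelihood, R 4.3.3), with Benjamini-Hochberg adjustment over all genes tested and 95% intervals. RPKM divided the scaled CPM by exon length. The pools, which hold RNA of the same mice, stayed out of the main fit. Fits with limma 3.58.1 (voom with quality weights, the authors' method), DESeq2 1.42.0, other filters, the pools added, GC trend removed, a replicate block and each mouse left out were alternatives. The fit was tested on simulated data with known changes. Libraries held 36260187 to 81072794 counts. No 2 libraries of a group agreed within sampling noise. Samples are separate mice by their labels.

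The 10 members and all gene lists were chosen with earlier results of these data known. All members were described. Of other lists, at most 6 genes called in a genotype comparison were named, by adjusted p, plus defining markers. Pros1, Hmgxb3, Slc40a1, Hpgd and Fcna were named outside this rule, after their values were seen. The 10 genes most like the member mean and the 5 most like Clec4f were named by Pearson r of centred log2 CPM (prior count 0.5).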

Additional observations from a re-analysis of the deposited data

Results flagged for a closer look

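Among the 40 sets of 5 mice examined for the 10 markers (each marker in each group), none had a liver set apart from the other 4 by more than 0.71 of the group's range, Dixon's 95% limit. The same check on the summed CPM of 16 other gene lists flagged 10 of 64 groups, where chance flags about 1 in 20. In WT LFD, mouse 3 was lowest for recruited monocyte genes (6.79 CPM, next 11.2) and for stellate cell genes (91.4 CPM, next 165), and it was also the lowest of 20 for 6 of the markers. Also in WT LFD, mouse 2 was highest for B cell genes (39.4 CPM) and mouse 5 lowest for T and NK cell genes (1.21 CPM). In Adn-Lpin1-/- LFD, mouse 5, the highest of its group for all 10 markers, was highest for adipocyte genes (40.7 CPM, next 13.8) and neutrophil genes (1.34 CPM). In Adn-Lpin1-/- HFD, mouse 2, the highest of 20 for all 10 markers, was highest for neutrophil genes (2.82 CPM), and mouse 4, the lowest of its group for 7 markers, was highest for hepatocyte genes (112500 CPM, next 89110). In WT HFD, mouse 5 was highest for neutrophil genes (2.89 CPM) and mouse 3 for sinusoidal endothelial genes (229 CPM, next 173).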

How the results depend on the processing

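On LFD, in the diet comparison of WT mice and for the interaction, 0 members were called under every alternative run, 0 with each mouse left out. On HFD the 7 called members (18.6% of all genes) were 5 with the GC trend removed (16.1%) and 8 by DESeq2 (22.3%). They were 9 with the pools as sixth libraries (28.8%) and 10 by voom with quality weights and pools (36.3%). With each mouse left out they were 2 to 8, where 11.4% to 21.1% of all genes were called. The pools repeat RNA of the same mice, so fits that add them overstate the number of independent animals. Same-numbered mice did not deviate together (r from -0.409 to 0.274, above 0.1 in 6 of 30 pairs). With the replicate block 0, 7, 0, 1 and 0 members were called for the genotype on LFD and HFD, the diet in WT and Adn-Lpin1-/- mice and the interaction. In that order 11.7%, 15.4%, 0.69%, 1.64% and 0% of all genes were called. All genes called on HFD fell from 2434 to 2012. The diet count in Adn-Lpin1-/- mice was 2 with pools (7.3% of all genes) and 6 by voom with pools (17.7%), against 1 (2.46%). With each mouse left out it was 0 to 1 (0.944% to 2.95%). The diet estimate of Vsig4 in WT mice was 0.0011 by voom with pools, against -0.09. With each mouse left out, the LFD genotype estimate ranged from -0.0077 to 0.2076 for Clec4f, -0.0311 to 0.3026 for Cd5l and -0.0203 to 0.2403 for Cd163. The diet estimate in WT mice ranged from -0.2507 to 0.0063 for Vsig4, -0.1505 to 0.0579 for Cd5l, -0.2172 to 0.0149 for Csf1r, -0.0324 to 0.2282 for Cd163 and -0.1805 to 0.1101 for C1qb, and the interaction from -0.1018 to 0.6802 for Marco and -0.0379 to 0.5305 for Adgre1. With Vsig4 in place of Clec4f as denominator, the log2 ratio differences on LFD were -0.2336 for Timd4, -0.2578 for Cd5l, -0.1371 for Csf1r, -0.2767 for Cd163, -0.2206 for C1qa and -0.0429 for C1qb, all from above 0. Leaving out Adn-Lpin1-/- HFD mouse 2 from the other lists, chosen after seeing the data, gave 2 calls of 14 other Kupffer cell genes, 4 of 17 scavenger genes, 1 of 7 C1 genes, 3 of 10 pan-macrophage genes, 0 of 6 monocyte genes, 2 of 10 endothelial, 1 of 10 stellate and 2 of 8 hepatocyte genes on HFD, while niche genes had 5 of 19 (from 6), lipid-associated macrophage genes 4 of 9 (from 6 of 10) and adipocyte genes 1 of 2 (as before). Over all genes, 11.4% were called without that mouse and 18.6% in the main fit. Peritoneal macrophage, B cell and mesothelium genes had 0 in both fits. The cause was not tested. Depth did not keep any member from being tested.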

Other observations

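The genes most like the panel were looked for over all genes tested, by Pearson r of the group-centred log2 CPM with the mean of the 10 markers over 20 mice. The closest was C1qc, the remaining chain of C1q (r = 0.976), followed by Cd44, a hyaluronan receptor (0.965), Lcp2, an adaptor of immune receptor signalling (0.964), and Pld4, a nuclease of endosomes (0.962). Fcgr4 (0.958), Ctss (0.955), Cd68 (0.947), Fcer1g (0.938), Cfp (0.937) and Sdc3 (0.936) came next. All 10 were called higher on HFD, from log2 0.64 for Fcer1g to 1.12 for Fcgr4 (edgeR), where 9.87% of all genes were called higher. They were picked for following the markers mouse by mouse, so these calls are not separate support. On LFD their adjusted p by edgeR ran from 0.0539 for Cd68 to 0.463 for Pld4. For Clec4f alone the closest were Cfp (r = 0.949), which encodes properdin, Lcp2 (0.946), Cd300ld (0.935), C1qc (0.932) and Pld4 (0.904). These values share libraries with the markers and say nothing of common control.

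The pool libraries, which repeat the RNA of the same mice, placed 38 of 40 marker values inside the range of their 5 mice. Csf1r in the WT HFD pool was at 33.5 CPM, above its 5 mice (26.3 to 30.1 CPM), and Cd163 in the Adn-Lpin1-/- LFD pool was at 10.1 CPM, just above 9.95 CPM.

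Adn-Lpin1-/- HFD mouse 2, at 581 CPM for the sum of the markers, ranked 1 of 20 livers for pan-macrophage genes (225 CPM) and recruited monocyte genes (23.7 CPM), 3 for sinusoidal endothelial genes (269 CPM) and stellate cell genes (391 CPM), and 16 for hepatocyte genes (89110 CPM).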
